A study of Mus musculus with 12 samples.

Results

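The genes of MHC class II antigen presentation were examined across 6 populations sorted from mouse bone marrow. They are 10 genes chosen by name, from the class II chains to their transactivator: H2-Aa, H2-Ab1, H2-Eb1, Cd74, H2-DMa, H2-DMb1, H2-DMb2, H2-Oa, H2-Ob and Ciita. The array carried 13 probes under these names among 31541 gene names. All 13 probes and all 10 genes passed the filter on dim probes, among 18556 genes tested.

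RNA came from 16-week-old female C57BL/6 mice whose genome carries a human CD4 (hCD4) reporter driven by an enhancer and promoter of Cebpa, the gene of a transcription factor of granulocyte and monocyte differentiation. Every group carried this transgene, and the series title names 2 mice. The groups were hCD4+ GMP (granulocyte-monocyte progenitors), hCD4+ and hCD4- pre-pro-B cells, hCD4+ and hCD4- pro-B cells, and pre-B cells, whose hCD4 status the labels do not give. Each group had 2 arrays, hybridised with Cy3-labelled RNA in 1 colour. The labels do not tie a replicate to a mouse, so the p-values measure only the spread between these arrays, which may be technical. In such sorted bulk RNA, fewer cells of a type and less RNA per cell cannot be told apart.

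On each array 50.6% to 56.7% of probes passed the scanner software's background mark, and replicate arrays correlated at 0.982 to 0.992. The 75th percentile of signal was 247 and 362 intensity units on the hCD4- pre-pro-B arrays, against 435 to 953 on the other arrays. The arrays lay on 3 slides. The first held GMP and hCD4- pre-pro-B, the second hCD4- pro-B with hCD4+ pre-pro-B, and the third hCD4+ pro-B and pre-B. Within 1 slide fall 2 of the comparisons below, GMP minus hCD4- pre-pro-B and pre-B minus hCD4+ pro-B; in the others slide and group cannot be told apart. Cebpa itself stood at -1.46 and -1.95 in hCD4+ pro-B arrays and was not well above background in hCD4- pro-B arrays, a rise of at least 8.72-fold (adjusted p = 0.000961). On the pre-pro-B arrays Cebpa was above background throughout and the groups overlapped. It stood there at -0.35 and -0.64 in hCD4+ and -0.55 and -1.42 in hCD4- arrays. Pax5 and Ebf1, transcription factors that define committed B cells, were above background on all pro-B and pre-B arrays, but on 0 arrays of either pre-pro-B group.

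Class II molecules show peptides from endosomes to CD4 T cells. An alpha and a beta chain pair in the endoplasmic reticulum around the invariant chain, which guides them to endosomes, where cathepsins cut it down and H2-DM exchanges the remaining fragment for antigen peptides. H2-O binds H2-DM and restrains it. Ciita is the coactivator that switches the class II promoters on. Dendritic cells and B cells present antigen constitutively, and in mice class II normally becomes strong at the cell surface late in marrow B cell development. C57BL/6 mice lack a working H2-Ea gene, so H2-Eb1 is transcribed without its partner chain.

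The class II chromosomal region carries 8 of the 10 genes, on mouse chromosome 17. In mm9 coordinates the probes lay in the order H2-Oa (chr17:34232033-34232092), H2-DMa (chr17:34274300-34274863), H2-DMb2 (chr17:34284764-34284823), H2-DMb1 (chr17:34297109-34297168), H2-Ob (chr17:34382790-34382849 for the probe used), H2-Ab1 (chr17:34406296-34406355), H2-Aa (chr17:34421285-34421344, minus strand) and H2-Eb1 (chr17:34453075-34453134). The Ciita probe was at chr16:10526568-10526627, and Cd74 lies on another chromosome. An annotation in mm9 was not used here, so the exon or untranslated part that each probe covers is not given. The neighbouring H2-DMb1 and H2-DMb2 are closely related, but their probes shared only 19 identical bases of 59 at the best alignment.

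Class II promoters share a short module read by a common machinery: an X box bound by the RFX complex and CREB, and a Y box, an inverted CCAAT element bound by NF-Y, on which Ciita docks. The stretches below are shown because members that moved in opposite directions hold the same Y box letters. They come from the RefSeq promoter table (GRCm38.p6), are 87 bases long and run 5′ to 3′ on the gene's strand. Capitals mark TGATTGG, the letters of the Y box, and AGCAAC as well as TGATGC and TGACGTCA, strings found in X boxes, which were searched separately and may abut.
H2-Aa: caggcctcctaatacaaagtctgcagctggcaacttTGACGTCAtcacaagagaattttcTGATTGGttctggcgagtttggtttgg
H2-Eb1: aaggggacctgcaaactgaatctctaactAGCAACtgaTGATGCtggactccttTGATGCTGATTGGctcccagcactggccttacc
H2-DMb1: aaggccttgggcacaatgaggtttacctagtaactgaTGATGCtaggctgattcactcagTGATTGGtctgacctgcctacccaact
H2-DMb2: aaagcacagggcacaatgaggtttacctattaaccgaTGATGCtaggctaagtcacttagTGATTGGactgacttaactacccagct
H2-Oa: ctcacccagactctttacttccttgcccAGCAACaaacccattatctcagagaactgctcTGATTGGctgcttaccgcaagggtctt
H2-Ob: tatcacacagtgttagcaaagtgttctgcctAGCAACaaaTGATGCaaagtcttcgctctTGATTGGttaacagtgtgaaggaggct

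On chromosome 17 in GRCm38.p6 these are chr17:34287847-34287933 on the minus strand for H2-Aa, and on the plus strand chr17:34305746-34305832 for H2-Eb1, chr17:34153068-34153154 for H2-DMb1, chr17:34145097-34145183 for H2-DMb2, chr17:34092274-34092360 for H2-Oa and chr17:34238786-34238872 for H2-Ob. On either strand, TGATTGG was in the window of 6 of the 7 members that the table holds, H2-DMa being the exception, against 7.82% of all 32851 windows of that length. Counted from the annotated start, its first base lay between -92 (H2-DMb2) and -45 (H2-Oa). AGCAAC was in 3 of the 7 members (H2-Eb1, H2-Oa and H2-Ob) against 14.8% of windows. TGATGC was in 4 of 7 (H2-Eb1, H2-DMb1, H2-DMb2 and H2-Ob) against 10.9%, and TGACGTCA in 1 of 7 (H2-Aa) against 1.79%. A match describes the letters and does not show binding. H2-Ab1, Cd74 and Ciita had no promoter entry to print.

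Levels below are log2 signal minus the array's own 75th percentile, so 0 is the brightness of that percentile, and levels of different probes are not comparable. The chains and the invariant chain shared 1 profile over the groups. H2-Ab1, the beta chain of I-A, stood at 1.76 and 1.69 in hCD4+ GMP, 5.92 and 5.83 in hCD4+ pre-pro-B, 6.78 and 6.60 in hCD4- pre-pro-B, 4.90 and 4.74 in hCD4+ pro-B, 4.79 and 4.65 in hCD4- pro-B, and 5.66 and 5.55 in pre-B. It was highest in pre-pro-B cells, and the 2 pro-B groups overlapped. Its other probe, which covers nearly the same bases, gave means of 1.54 in GMP and 6.57 in hCD4- pre-pro-B cells. H2-Aa, the alpha chain of I-A, was at -6.83 and -6.55 in GMP, below the background mark on both arrays, then at 1.75 and 1.32 in hCD4+ pre-pro-B, 2.60 and 1.93 in hCD4- pre-pro-B, -0.79 and -1.33 in hCD4+ pro-B, -2.12 and -2.64 in hCD4- pro-B, and 0.20 and -0.33 in pre-B. No 2 groups overlapped for H2-Aa, and their order was GMP, hCD4- pro-B, hCD4+ pro-B, pre-B, hCD4+ pre-pro-B and hCD4- pre-pro-B, from low to high.

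H2-Eb1, the beta chain of I-E, kept the same order. It stood at -3.30 and -4.79 in GMP, where 1 of 2 arrays was above background, 5.18 and 5.26 in hCD4+ pre-pro-B, 6.20 and 6.18 in hCD4- pre-pro-B, 2.86 and 2.70 in hCD4+ pro-B, 1.88 and 1.22 in hCD4- pro-B, and 3.98 and 3.77 in pre-B. Cd74, the invariant chain, was at -2.94 and -4.68 in GMP, again with 1 array above background, 5.27 and 5.14 in hCD4+ pre-pro-B, 6.39 and 6.26 in hCD4- pre-pro-B, 2.94 and 2.44 in hCD4+ pro-B, 1.57 and 0.56 in hCD4- pro-B, and 3.62 and 3.22 in pre-B. Neither gene's groups overlapped. Over the 12 arrays, H2-Aa, H2-Ab1, H2-Eb1 and Cd74 correlated with each other at 0.98 to 1 (Pearson), a description of points that share arrays and groups.

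**Figure D1:**
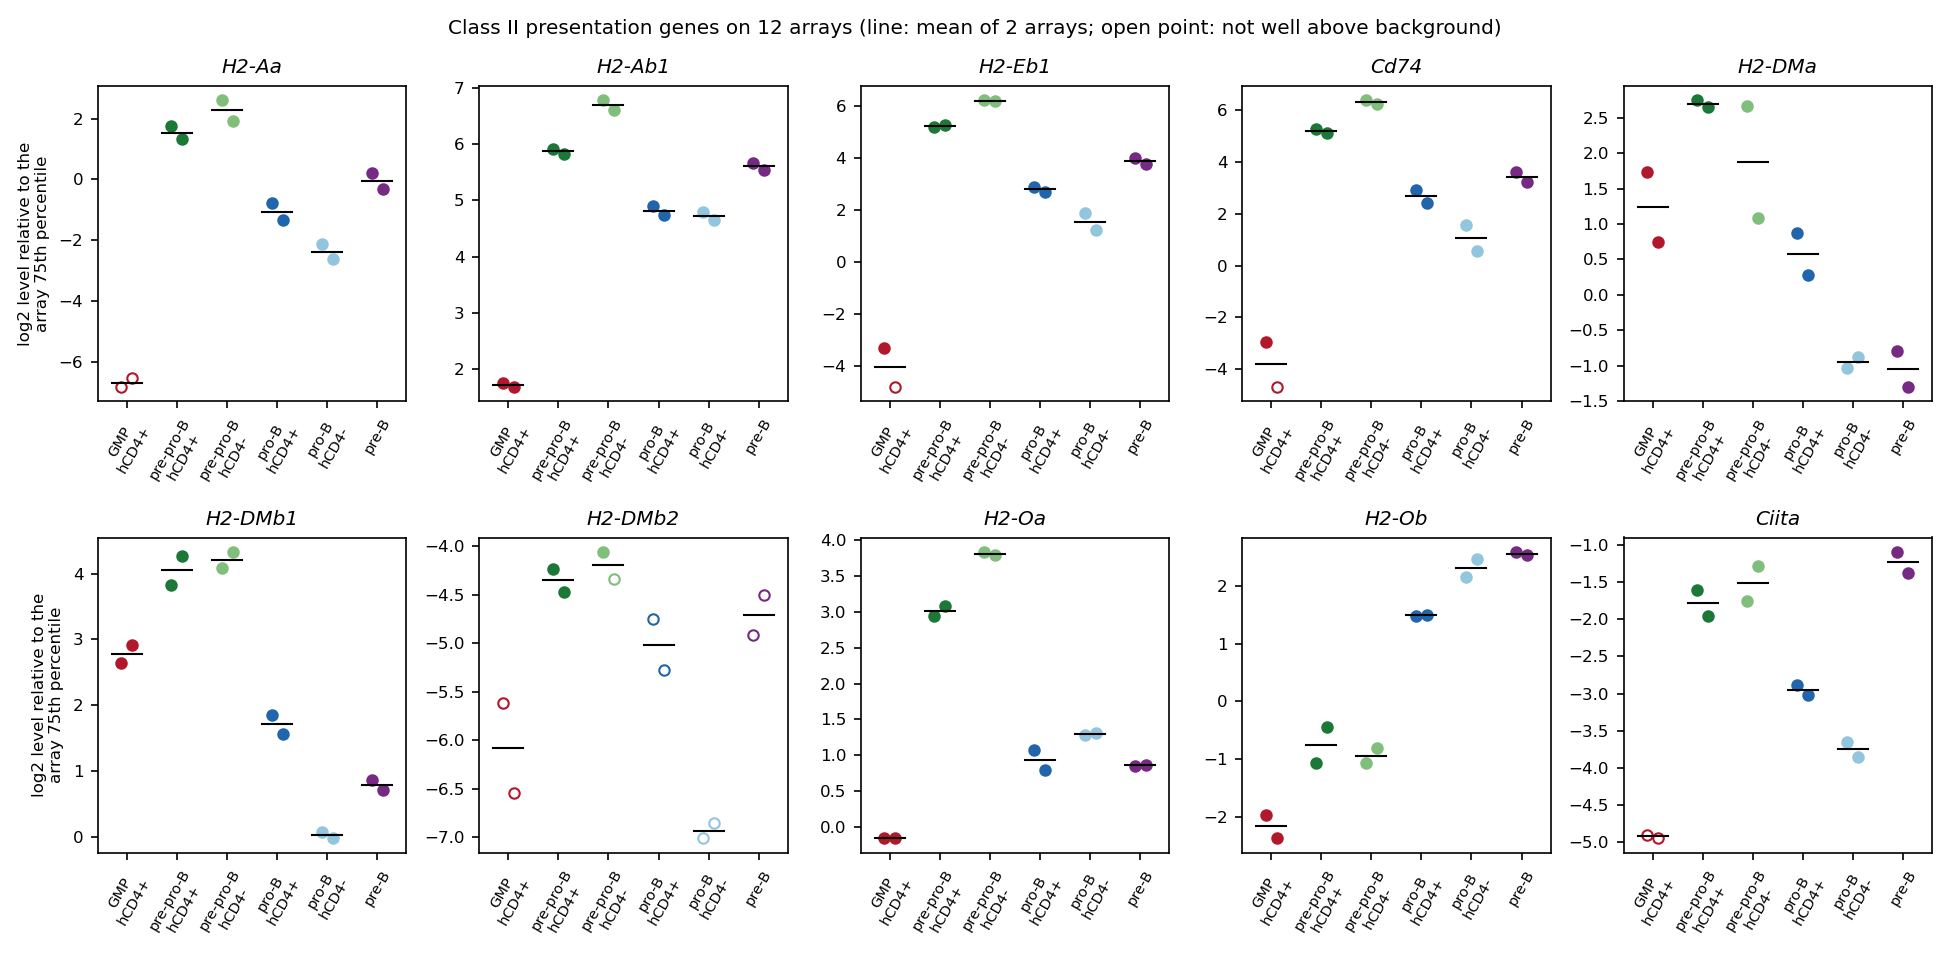
Level of each class II presentation gene on each array (log2 signal relative to the array's 75th percentile), by group. Points are arrays, lines are means of 2 arrays, and open points were not well above background; the chains and Cd74 peak in both pre-pro-B groups, whereas H2-Ob is lowest in GMP and pre-pro-B cells and highest in pre-B and hCD4- pro-B cells.

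H2-DMa and H2-DMb1 followed another profile, in which the GMP mean lay between those of the pre-pro-B groups and that of hCD4+ pro-B cells. H2-DMb1, a beta chain of the peptide exchange factor, stood at 2.64 and 2.92 in GMP, 3.83 and 4.27 in hCD4+ pre-pro-B, 4.08 and 4.33 in hCD4- pre-pro-B, 1.85 and 1.57 in hCD4+ pro-B, 0.07 and -0.02 in hCD4- pro-B, and 0.87 and 0.72 in pre-B. The pre-pro-B groups overlapped, and the others did not. H2-DMa, its alpha chain, was at 1.73 and 0.74 in GMP, 2.75 and 2.66 in hCD4+ pre-pro-B, 2.67 and 1.09 in hCD4- pre-pro-B, 0.87 and 0.28 in hCD4+ pro-B, -1.03 and -0.88 in hCD4- pro-B, and -0.79 and -1.30 in pre-B. The hCD4- pre-pro-B replicates of H2-DMa were the farthest apart and overlapped both GMP and hCD4+ pre-pro-B. GMP overlapped hCD4+ pro-B as well, and hCD4- pro-B overlapped pre-B. H2-DMb2, the other beta chain, was above background on 3 arrays alone, both hCD4+ pre-pro-B arrays (-4.24 and -4.47) and 1 hCD4- pre-pro-B array (-4.06). H2-DMa and H2-DMb1 correlated at 0.91 over the 12 arrays, but at only 0.11 to 0.35 with the chains and Cd74.

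The subunits of H2-O did not share a profile and correlated at -0.20. H2-Oa, its alpha subunit, stood at -0.16 on both GMP arrays, 2.95 and 3.08 in hCD4+ pre-pro-B, 3.84 and 3.79 in hCD4- pre-pro-B, 1.07 and 0.80 in hCD4+ pro-B, 1.28 and 1.31 in hCD4- pro-B, and 0.85 and 0.87 in pre-B, so it was highest in pre-pro-B cells, and pre-B overlapped hCD4+ pro-B. H2-Ob, its beta subunit, was at -1.96 and -2.37 in GMP, -1.06 and -0.45 in hCD4+ pre-pro-B, -1.07 and -0.81 in hCD4- pre-pro-B, 1.48 and 1.5 in hCD4+ pro-B, 2.16 and 2.46 in hCD4- pro-B, and 2.59 and 2.53 in pre-B. The pre-pro-B groups overlapped for H2-Ob. It was high in pro-B and pre-B cells, where the H2-DMa and H2-DMb1 means were lowest. Its correlations were -0.79 to H2-DMa and -0.83 to H2-DMb1, but -0.19 to H2-DMb2, which was mostly below background. GMP had the lowest H2-Ob mean (-2.16), although H2-DMa (1.24) and H2-DMb1 (2.78) were also below their pre-pro-B means there. Both other H2-Ob probes were also higher in pro-B and pre-B than in pre-pro-B arrays, although 1 of them was below background in GMP and pre-pro-B cells.

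Ciita was dim. It stood at -4.90 and -4.95 in GMP, below background on both arrays, -1.61 and -1.95 in hCD4+ pre-pro-B, -1.75 and -1.28 in hCD4- pre-pro-B, -2.89 and -3.02 in hCD4+ pro-B, -3.65 and -3.85 in hCD4- pro-B, and -1.09 and -1.37 in pre-B. The pre-B and hCD4- pre-pro-B arrays overlapped at the top, as did the 2 pre-pro-B groups, and Ciita correlated with H2-Aa, H2-Ab1, H2-Eb1 and Cd74 at 0.90 to 0.92 over the 12 arrays. Ciita has separate promoters for dendritic cells and for B cells, which 1 probe does not separate. The probe is of low complexity: 90% of its 60 bases are A or C, and AAAAC occurs 8 times. The array had no other probe under this name, so whether the signal is that of Ciita alone was not tested, and each Ciita value here is that of this probe. Its first 30 bases are shown to make this visible, with that repeat in capitals.
Ciita probe: gccccatctaatgcAAAACAAAACAAAACg

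Each level was then compared between hCD4+ and hCD4- pre-pro-B cells, which sets reporter-expressing cells against others of the same sort. None of the 10 genes rose and 2 fell, when 8.83% of the 18556 genes tested rose and 8.12% fell (limma, Benjamini-Hochberg adjusted p under 0.05). H2-Ab1 averaged 5.87 ± 0.06 in hCD4+ and 6.69 ± 0.13 in hCD4- cells (SD, n = 2 each), a log2 change of -0.82 ± 0.12 (SE, adjusted p = 0.00334). H2-Oa changed by -0.80 ± 0.12 (adjusted p = 0.00343). H2-Aa, H2-Eb1 and Cd74 had values of the same sign, -0.73, -0.97 and -1.12, that did not pass (adjusted p = 0.156, 0.152 and 0.182). The median over the 10 genes was -0.50, beside -0.06 over all genes tested.

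The H2-Ab1 call depended on the scaling, whereas H2-Oa passed under every alternative but the fit of these 4 arrays alone. The unscaled signal of H2-Ab1 averaged 43010 intensity units in hCD4+ and 31900 in hCD4- cells, whose arrays had the lowest 75th percentiles of signal. Scaling on the array median moved the median of all genes to 0.24 and the share of calls that were rises to 83.6%, against 52.1% with the 75th percentile. H2-Ab1 then did not pass (-0.51, adjusted p = 0.0617), and when only these 4 arrays were fitted neither H2-Ab1 nor H2-Oa passed (adjusted p = 0.0939 and 0.0892). H2-DMa rested on 1 array: its change was 0.82 (adjusted p = 0.302), but 1.61 (adjusted p = 0.031) without hCD4- pre-pro-B replicate 1.

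The same contrast was then made in pro-B cells. Of the 10 genes 4 rose in hCD4+ cells and 1 fell, when 11.5% of all genes tested rose and 9.06% fell. H2-DMb1 averaged 1.71 in hCD4+ and 0.02 in hCD4- cells, a change of 1.69 ± 0.19 (SE, 3.22-fold, adjusted p = 0.000969), which passed under every alternative run. H2-Aa rose by 1.32 ± 0.32 (2.49-fold, adjusted p = 0.0245) and Ciita by 0.79 ± 0.19 (adjusted p = 0.0236). H2-DMb2 was called higher (adjusted p = 0.00491), but it was below background in both groups and has no fold. H2-Ob fell by 0.82 ± 0.23 on the log2 scale (adjusted p = 0.0375).

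The remaining members showed how uneven the set was in pro-B cells. Cd74 at 1.62 ± 0.53, H2-DMa at 1.53 ± 0.51 and H2-Eb1 at 1.23 ± 0.42 missed the threshold (adjusted p = 0.0655, 0.0694 and 0.0745). They passed with replicate number as a block in the model (adjusted p = 0.0233, 0.0286 and 0.0479). H2-Ab1 differed by 0.10 ± 0.12 (adjusted p = 0.601). H2-Oa was at -0.36 ± 0.12 (adjusted p = 0.0644). The median over the members was 1.27, beside 0.02 over all genes. Scaling on the array median gave all genes a median of -0.20 and made 30.8% of calls rises, against 55.9% with the 75th percentile. Under it H2-Aa did not pass (1.10, adjusted p = 0.0537). Leaving out hCD4+ pro-B replicate 1 or hCD4- pro-B replicate 2 also ended that call (adjusted p = 0.138 and 0.15), and without any single pro-B array neither H2-Ob (adjusted p 0.0746 to 0.197) nor Ciita (0.0628 to 0.138) passed. In the authors' deposited table the Ciita change was 0.25 (adjusted p = 0.28).

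Whether the hCD4 difference itself differed between the stages was tested as 1 contrast, the pro-B difference minus the pre-pro-B difference. It was positive and passed for 7 of 10 members and negative for none, when 12.8% of all genes passed upward and 10.2% downward. H2-DMb1 gave 1.85 ± 0.27 (SE, adjusted p = 0.00309) and H2-Ab1 0.92 ± 0.17 (adjusted p = 0.00837). Cd74 gave 2.75 ± 0.75, H2-Eb1 2.20 ± 0.60, H2-Aa 2.05 ± 0.46 and Ciita 1.06 ± 0.27 (adjusted p = 0.0342, 0.0332, 0.017 and 0.0279). The 7 include H2-DMb2, which was below background on every pro-B array, so its value is not a fold. With normexp and quantile normalization that value was 0.21 (adjusted p = 0.292). H2-Oa (0.44), H2-DMa (0.71) and H2-Ob (-1) did not pass (adjusted p = 0.0899, 0.505 and 0.0551). The median over the members was 1.45, beside 0.06 over all genes. Under array-median scaling the median of all genes was -0.46 and 17.8% of calls were positive, against 55.6%. Of the 7 members, 3 then passed upward and H2-Ob passed downward, with H2-Ab1 at 0.40 (adjusted p = 0.221). H2-DMb1 alone passed under all 20 alternatives. The H2-Eb1 and Cd74 calls were each lost when 7 of the 8 arrays were left out in turn (adjusted p up to 0.11 and 0.112), and the H2-Aa call without 3 of them (0.0593 to 0.0631). The Ciita call was lost under 12 of the 20 alternatives (adjusted p = 0.0516 to 0.272). Among these were array-median scaling (0.54), both quantile settings (0.80 and 0.41), the authors' deposited table (0.35), no filter on dim probes, the fit of the compared arrays alone and 6 single arrays left out.

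**Figure D2:**
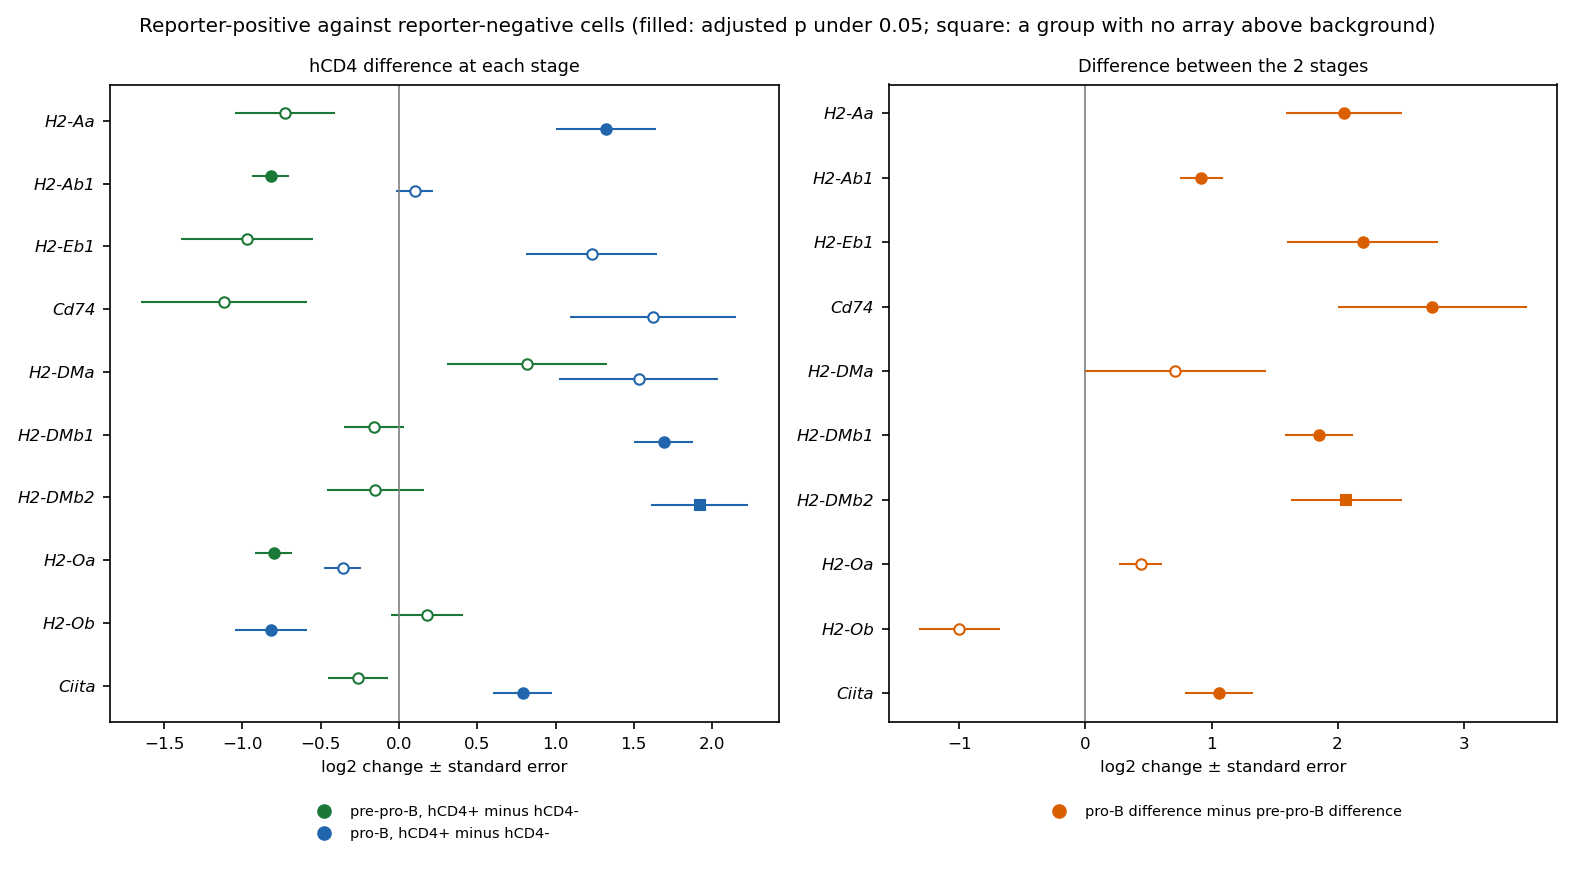
Log2 change of each gene, hCD4+ minus hCD4-, at both stages (left) and the difference between these changes (right), with standard errors from limma. Filled symbols passed an adjusted p of 0.05 and squares involve a group with no array above background; H2-Ab1 and H2-Oa fell in pre-pro-B cells, H2-DMb1, H2-Aa and Ciita rose in pro-B cells, and 7 of 10 genes passed on the right.

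Between pro-B and pre-pro-B cells, a step at which the B cell programme starts, the class II genes fell and H2-Ob rose. In hCD4- cells 9 of 10 fell and 1 rose, when 26.8% of all genes fell and 32.8% rose. Cd74 averaged 1.06 in pro-B and 6.33 in pre-pro-B cells, a change of -5.26 ± 0.53 (38.4-fold lower, adjusted p = 5.5e-05). H2-Aa changed by -4.65 (25-fold lower), H2-Eb1 by -4.63 (24.8-fold lower) and H2-DMb1 by -4.18 (18.2-fold lower), with adjusted p between 5.57e-07 and 2.9e-05. H2-DMa at -2.84, H2-Oa at -2.52, Ciita at -2.23 and H2-Ab1 at -1.97 fell less (adjusted p at most 0.00155). H2-DMb2 was called lower (adjusted p = 0.000113), with 1 of 2 pre-pro-B arrays and no pro-B array above background, and has no fold. H2-Ob rose by 3.25 ± 0.23 (9.51-fold, adjusted p = 6.06e-06). All 10 calls stood under every alternative run.

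In hCD4+ cells 8 members fell and 1 rose, when 21.2% of all genes fell and 32.9% rose. H2-Aa changed by -2.60, Cd74 by -2.52, H2-Eb1 by -2.44, H2-DMb1 by -2.34, H2-DMa by -2.13, H2-Oa by -2.08, Ciita by -1.18 and H2-Ab1 by -1.05 (adjusted p at most 0.00818). H2-Ob rose by 2.25 (4.75-fold, adjusted p = 8.76e-05), and H2-DMb2 at -0.66 did not pass (adjusted p = 0.107). The H2-DMa call was lost without hCD4+ pro-B replicate 2 (-1.83, adjusted p = 0.0576). The 7 calls of the contrast between stages above are equally tests of this step between reporter states. For H2-Aa, H2-Ab1, H2-Eb1, Cd74, H2-DMb1 and Ciita the fall was larger in hCD4- cells, but H2-DMb1 alone passed under all 20 alternatives. For the last of the 7, H2-DMb2, no such size can be given, since it was below background on every pro-B array. The member median was -2.78 in hCD4- cells and -2.10 in hCD4+ cells, beside 0.03 and 0.25 over all genes. Array-median scaling put all genes at -0.08 in the hCD4+ step, with 39.2% of calls rises, against 60.8%. Both steps cross slides. On the second slide, where hCD4- pro-B lay beside hCD4+ pre-pro-B, the mean level of H2-Aa, H2-Ab1, H2-Eb1 and Cd74 was 1.53 and 0.95 in the pro-B arrays and 4.53 and 4.39 in the pre-pro-B arrays.

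Pre-B cells had more of the class II chains than hCD4- pro-B cells. Here 7 of 10 members rose and 1 fell, when 19.7% of all genes rose and 21.2% fell. Ciita averaged -1.23 in pre-B and -3.75 in hCD4- pro-B cells, a rise of 2.52 ± 0.19 (5.72-fold, adjusted p = 6.77e-05). Cd74 rose by 2.35 ± 0.53, H2-Eb1 by 2.33 ± 0.42 and H2-Aa by 2.31 ± 0.32, each about 5-fold (adjusted p = 0.00913, 0.00341 and 0.00103), and H2-Ab1 by 0.88 ± 0.12 (1.84-fold, adjusted p = 0.000912). H2-DMb1 rose by 0.78 (adjusted p = 0.0125) and H2-Oa fell by 0.43 (adjusted p = 0.0197). H2-DMa (-0.09) and H2-Ob (0.25) did not pass, and H2-DMb2 was called with both groups below background. Cd74 and H2-DMb1 did not pass without hCD4- pro-B replicate 2 (adjusted p = 0.0651 and 0.0694) or without pre-B replicate 1 (0.0521 and 0.0694), and H2-Oa not without any 1 of these 4 arrays (0.0737 to 0.0945). Array-median scaling gave all genes a median of -0.16 and made 34.6% of calls rises, against 48.2%.

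Against hCD4+ pro-B cells, on the same slide, the pre-B arrays separated the members: 4 rose and 2 fell, when 19.1% of all genes rose and 23.8% fell. Ciita rose by 1.72 ± 0.19 (3.30-fold, adjusted p = 0.00021), H2-Ob by 1.07 ± 0.23 (adjusted p = 0.00577), H2-Aa by 1 ± 0.32 (adjusted p = 0.0364) and H2-Ab1 by 0.78 ± 0.12 (adjusted p = 0.00109). H2-DMb1 fell by 0.91 ± 0.19 on the log2 scale (adjusted p = 0.00524) and H2-DMa by 1.62 ± 0.51 (adjusted p = 0.0329). H2-Eb1 at 1.10 and Cd74 at 0.73 did not pass (adjusted p = 0.0672 and 0.31). H2-DMb1 was thus the gene whose pre-B level lay above 1 pro-B group and below the other. The H2-Aa call was lost without hCD4+ pro-B replicate 2 or pre-B replicate 1 (adjusted p = 0.198 and 0.195), and the H2-DMa call without any 1 of the 4 arrays (0.0606 to 0.162). The member medians were 1.55 against hCD4- and 0.76 against hCD4+ pro-B cells, beside 0.03 and 0.02 over all genes.

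Of all groups, GMP had the lowest levels of the chains, Cd74, H2-O and Ciita, but not of H2-DMa or H2-DMb1. Against hCD4- pre-pro-B cells on the same slide, 9 of 10 members fell and none rose, when 30.8% of all genes fell and 34.7% rose. H2-Ab1 averaged 1.72 in GMP and 6.69 in hCD4- pre-pro-B cells (31.3-fold lower, adjusted p = 3.2e-08). H2-Aa was at least 119-fold lower and Ciita at least 8.64-fold lower, each below background on both GMP arrays. H2-Eb1 changed by -10.23 and Cd74 by -10.13, with 1 GMP array above background. H2-Oa changed by -3.97, H2-DMb1 by -1.43 and H2-Ob by -1.22 (adjusted p at most 0.0015), H2-DMb2 was called lower with 1 of 2 pre-pro-B arrays and no GMP array above background, and H2-DMa at -0.65 did not pass (adjusted p = 0.293).

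Against hCD4+ pro-B cells, 8 members fell in GMP and 1 rose, when 24.4% of all genes fell and 20.6% rose. H2-Eb1 changed by -6.83, Cd74 by -6.49, H2-Ob by -3.65, H2-Ab1 by -3.10 and H2-Oa by -1.10 (adjusted p at most 0.000156). For H2-Eb1 and Cd74, with 1 of 2 GMP arrays above background, the alternatives ran from -7.57 to -5.09 and from -7.36 to -4.94. H2-Aa was at least 11.8-fold lower and Ciita at least 3.19-fold lower. H2-DMb1 was the 1 gene that rose, at 2.78 in GMP and 1.71 in hCD4+ pro-B cells (2.10-fold higher, adjusted p = 0.0023), and H2-DMa at 0.66 did not pass (adjusted p = 0.324). The call for H2-DMb2 rests on arrays below background. The member medians were -3.69 and -2.53, beside -0.04 and -0.08 over all genes. Array-median scaling shifted all genes to 0.41 and 0.40 in these comparisons, with 69% and 75.4% of calls rises, against 53% and 45.8%.

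**Figure D3:**
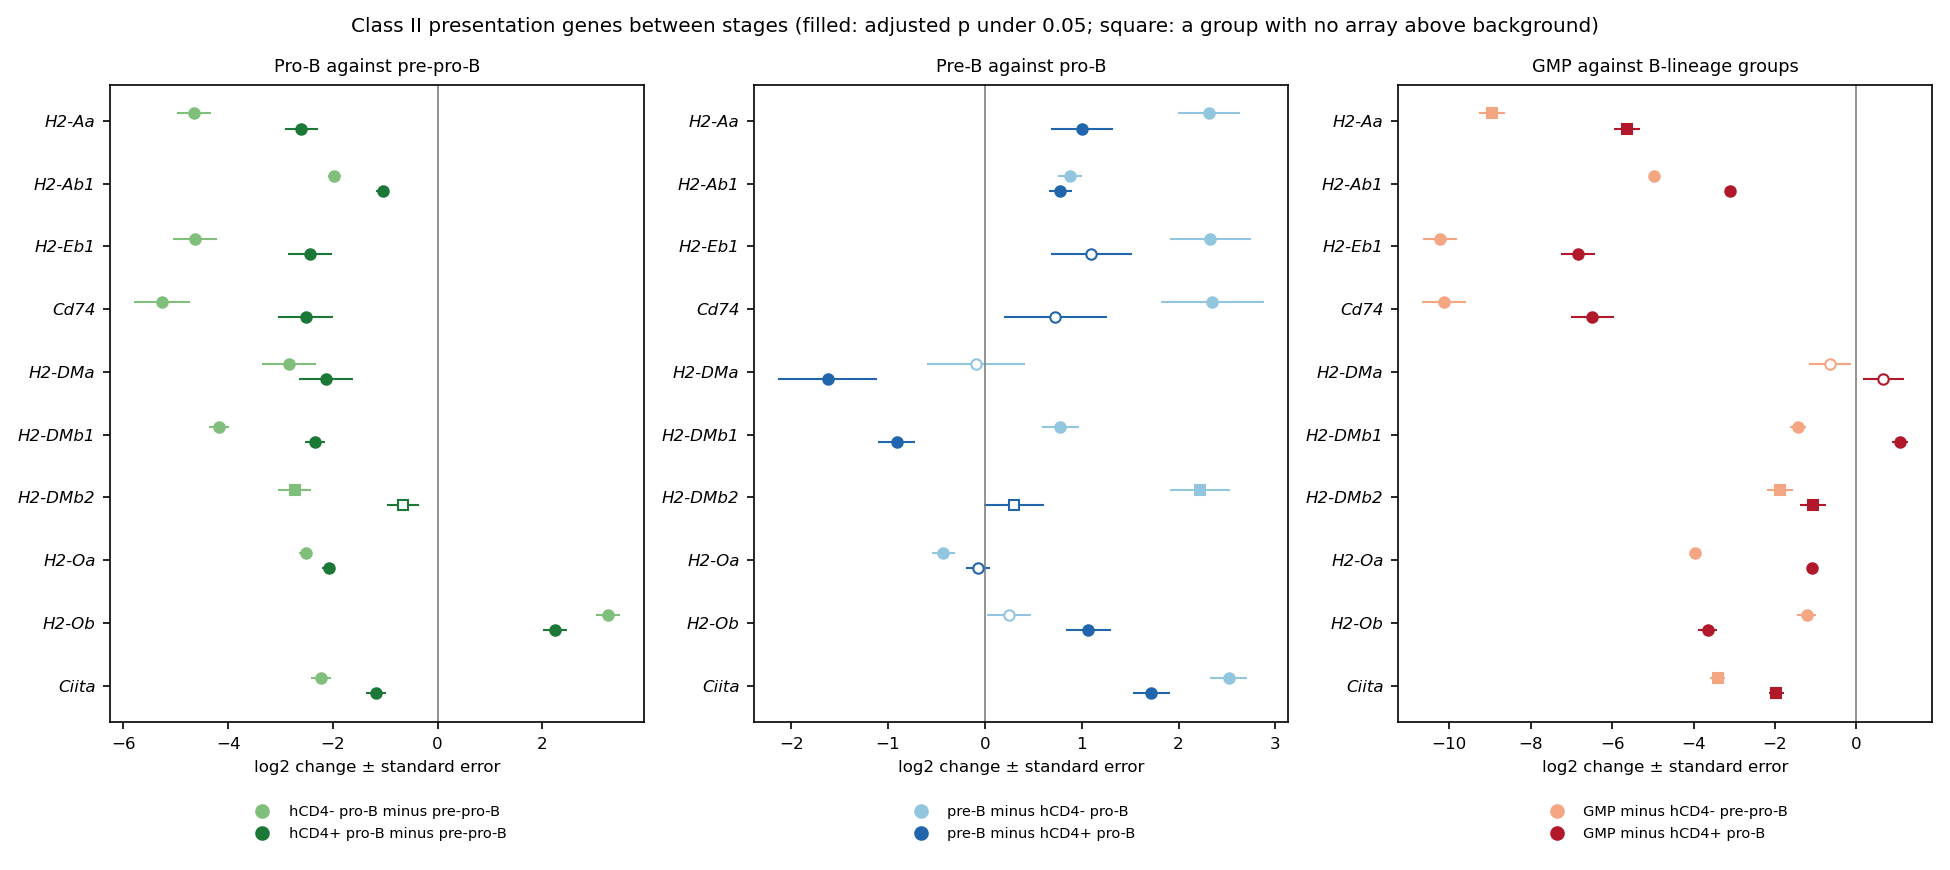
Log2 change of each gene with its standard error in pro-B against pre-pro-B cells (left), pre-B against pro-B cells (middle) and GMP against 2 B-lineage groups (right). Filled symbols passed an adjusted p of 0.05, and a square is a change in which a group had no array above background, so it is not a fold; H2-Ob alone rose in pro-B over pre-pro-B cells, and H2-DMb1 alone rose in GMP over hCD4+ pro-B cells.

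The factors that act on Ciita and on class II promoters were counted against the same shares of all genes: 11.5% rose and 9.06% fell in hCD4+ against hCD4- pro-B cells, and 32.8% rose and 26.8% fell in the hCD4- step to pro-B. Of 8 listed regulators of Ciita, 1 rose and 3 fell in hCD4+ against hCD4- pro-B cells. Irf8, an interferon regulatory factor of dendritic cells and monocytes, averaged 5.20 in hCD4+ and 3.82 in hCD4- pro-B cells (1.38 ± 0.12, adjusted p = 0.000391), whereas Irf4, which acts with PU.1 in B cells, averaged 1.45 in hCD4+ and 2.69 in hCD4- pro-B cells (-1.24 ± 0.16, adjusted p = 0.00195). In the step to pro-B, Irf8 fell by 4.54 in hCD4- cells and by 2.64 in hCD4+ cells while Irf4 rose by 2.96 and by 2.08 (adjusted p at most 2.33e-05). Irf4 rose further in pre-B cells, by 1.67 over hCD4- and by 2.90 over hCD4+ pro-B cells. In GMP, Irf4 was below background, at least 20.5-fold lower than in hCD4- pre-pro-B and at least 67.6-fold lower than in hCD4+ pro-B cells. Of 7 genes of the X and Y box factors, none rose and 2 fell in hCD4+ against hCD4- pro-B cells, and in the hCD4- step to pro-B 4 rose and none fell. Rfxank, an RFX subunit, was 1.18 higher in pre-B than in hCD4+ pro-B cells (adjusted p = 0.00238).

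Among 9 genes of class II processing and turnover, 5 fell and 1 rose in the hCD4- step to pro-B, beside 26.8% and 32.8% of all genes. Ctsl, a cathepsin that degrades the invariant chain in thymic epithelium, changed by -5.87, Ctsb by -4.16 and Ctss, the cathepsin of invariant chain cleavage in B and dendritic cells, by -3.57 (adjusted p at most 2.19e-06). In hCD4+ against hCD4- pro-B cells 3 rose and 1 fell, beside 11.5% and 9.06% of all genes. Ctsb rose by 0.69 ± 0.10 (adjusted p = 0.00369). In GMP, Lgmn, an endosomal asparagine-specific protease, changed by -4.22 against hCD4- pre-pro-B and by -3.67 against hCD4+ pro-B cells, and Ctss by -3.32 against hCD4- pre-pro-B cells. Of 6 costimulatory genes, 1 rose and 1 fell in hCD4+ pro-B cells, beside 11.5% and 9.06% of all genes. Icosl, a ligand of the T cell receptor ICOS, rose by 2.15 ± 0.15 (adjusted p = 0.000118) there and changed by -4.06 in pre-B against hCD4+ pro-B cells (adjusted p = 2.62e-06), with 1 of 2 pre-B arrays above background. Cd40, the receptor through which T cells help B cells, rose by 3.89 ± 0.46 in the same pre-B comparison.

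Of 14 genes of class I presentation, none rose and 4 fell in the hCD4- step to pro-B (median -0.19), beside 32.8% and 26.8% of all genes. In hCD4+ against hCD4- cells, none rose and 1 fell at the pro-B stage (median 0.04), beside 11.5% and 9.06% of all genes, and none rose and 3 fell at the pre-pro-B stage (median -0.12), beside 8.83% and 8.12%. Tapbp, which loads peptide on class I and lies in the extended MHC, fell by 1.86 ± 0.11 in the hCD4- step (adjusted p = 2.8e-06). Of 7 other tested genes in or beside the class II region, 2 rose and 1 fell in that step, and none rose and 1 fell between the pro-B groups. In pre-B against hCD4- pro-B cells, none of the 14 class I genes rose and 6 fell, beside 19.7% and 21.2% of all genes. The difference between the class I and class II genes was not tested.

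Genes were ranked by likeness to the mean of H2-Aa, H2-Ab1, H2-Eb1 and Cd74 over the 12 arrays, among 3222 genes with a spread over 1 on the log2 scale. The nearest were A430084P05Rik (now Scimp) at a Pearson correlation of 0.993, Cmah at 0.992, Slamf9 at 0.990, Lynx1 at 0.989 and Mcart6 (now Slc25a53) at 0.988, followed by Epha2 at 0.980, Mctp2 at 0.979 and Slc15a3 at 0.975. Scimp encodes an adaptor that couples class II molecules to signalling, and Cmah the enzyme that hydroxylates sialic acid. Scimp stood at means of -6.94 in GMP, 2.80 in hCD4+ pre-pro-B, 3.60 in hCD4- pre-pro-B, -0.73 in hCD4+ pro-B, -1.63 in hCD4- pro-B and 0.46 in pre-B, the order of H2-Aa. Nearest to Ciita were Adap2 at 0.968, Emid1 at 0.959, and Lyn, a Src-family kinase, and Cypt4 at 0.952 each. All these points share arrays and groups. The GMP means of Scimp (-6.94), Cmah (-6.64) and Mcart6 (-6.89) lay under the lowest level well above background on those arrays (-4.77 and -4.48). That of Lynx1 (-3.11) did not.

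Markers of dendritic cells moved with the class II genes in some comparisons only. Of 8 listed classical dendritic cell markers 5 were tested, and all 5 rose in hCD4+ against hCD4- pro-B cells, when 11.5% of all genes rose. Itgax (CD11c) averaged 1.13 in hCD4+ and -3.48 in hCD4- pro-B cells (4.61 ± 0.68, adjusted p = 0.00338), and Clec9a was at least 8.06-fold higher. The linear levels of the 5 were summed, so bright probes weigh most. On the log2 scale the sum was 3.33 to 3.49 in hCD4+ and 0.10 to 0.57 in hCD4- pro-B arrays, and 1.66 to 1.72 in GMP. In both pre-pro-B groups it was near 6.6, at 6.58 to 6.62 in hCD4+ and 6.58 to 6.60 in hCD4- cells, and none of the 5 passed between them. All 5 fell in each step to pro-B, beside 26.8% of all genes in hCD4- and 21.2% in hCD4+ cells. Itgax changed by -8.52 in hCD4- cells. In pre-B arrays the sum was -2.46 to -0.70 and partly background. All 5 markers were above background on pre-B replicate 1, but 1 on replicate 2. H2-Aa, H2-Ab1 and Ciita were higher in pre-B than in either pro-B group. The part of these markers in the class II results was not tested.

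Of 8 plasmacytoid dendritic cell markers, 5 rose and 1 fell in hCD4+ against hCD4- pro-B cells, beside 11.5% and 9.06% of all genes. Runx2 rose by at least 6.55-fold. All 8 fell in the hCD4- step to pro-B, beside 26.8% of all genes, with Ccr9, a chemokine receptor of plasmacytoid dendritic cells, at -7.26. Their sum was 8.66 to 8.85 in hCD4+ and 9.15 to 9.27 in hCD4- pre-pro-B arrays. It was 7.25 in both hCD4+ and 6.97 to 6.98 in hCD4- pro-B arrays, 7.84 to 7.97 in pre-B and 6.60 to 6.64 in GMP. Bright probes weigh most in it: Siglech averaged 6.18 in GMP and 6.93 in pre-B cells, where Spib was at 6.47 and Bst2 at 1.28. In pre-B against hCD4- pro-B cells 3 of the 8 rose and 1 fell, beside 19.7% and 21.2% of all genes. Against hCD4+ pro-B cells 1 rose and 4 fell, beside 19.1% and 23.8%. Of 9 monocyte and macrophage markers 6 rose in hCD4+ against hCD4- pro-B cells, when 11.5% of all genes did. So did 6 of 7 granulocyte-monocyte progenitor markers, Mpo by 8.56 ± 1.26 (adjusted p = 0.00326). In hCD4+ against hCD4- pre-pro-B cells, too, 6 of the 9 monocyte and macrophage markers rose, when 8.83% of all genes did. The median change of 4 plasma cell markers in hCD4+ against hCD4- pro-B cells was 0.05. None rose and 1 fell, beside 11.5% and 9.06% of all genes. The 1 was Igj, the joining chain of plasma cells, at means of -5.20 in hCD4+ cells, where 1 of 2 arrays was above background, and 2.16 in hCD4- cells (adjusted p = 0.000941). B cell progenitor markers summed to 8.91 to 8.93 in hCD4+ and 9.45 to 9.50 in hCD4- pro-B arrays, and 9.15 to 9.16 in pre-B. Of 6 later B cell markers, 4 rose in pre-B over hCD4- pro-B cells, when 19.7% of all genes did, Ms4a1 (CD20) by 2.18 ± 0.16 among them (adjusted p = 6.53e-05). The part of any of these lists in the class II results was not tested.

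**Figure D4:**
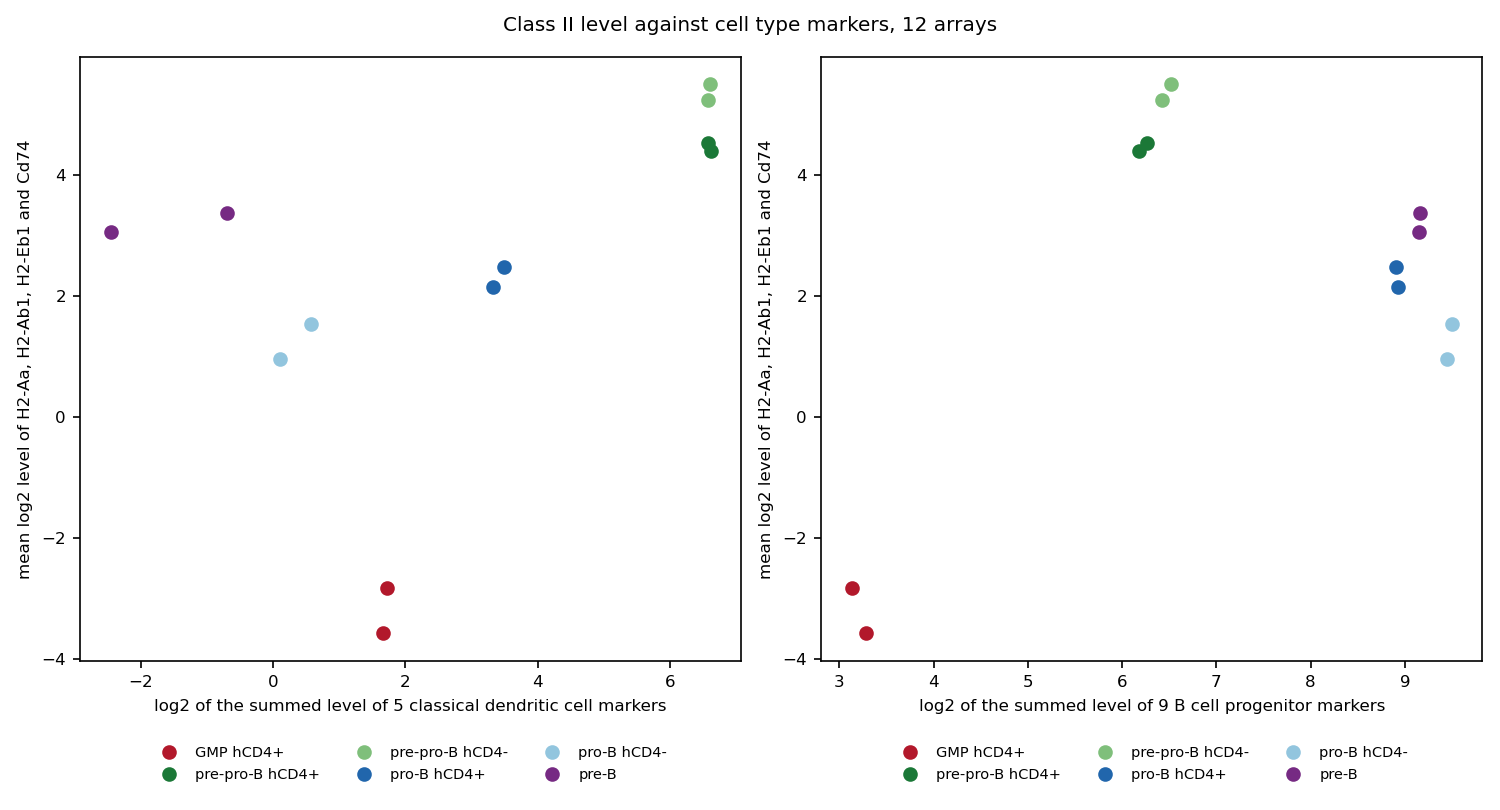
Mean log2 level of H2-Aa, H2-Ab1, H2-Eb1 and Cd74 on each array against the log2 summed level of 5 classical dendritic cell markers (left) and 9 B cell progenitor markers (right), points coloured by group. Pre-pro-B arrays are high on the left-hand marker axis. Pre-B arrays have the lowest dendritic marker sums, which are partly background, and class II levels above both pro-B groups.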

How the data were processed

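Total RNA of 12 samples was hybridised to 1-colour Agilent arrays. The deposited scanner files hold processed signal, an intensity after background correction that is not on a log scale, made with Agilent Feature Extraction 10.7.3.1 (protocol GE1_107_Sep09) per the file headers, with mm9 probe positions. The authors' deposited table holds log2 values whose normalization is not given in the sources used here; every column's median is 6.5, its centring and scaling are unknown. For the members, its position and description columns do not match the gene symbol on the same row, so only its symbols and values were used, as an alternative. Its correlation with quantile-normalized values was 0.944 to 0.951.

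Outlier spots (2469) were left out, none was saturated, log2 signal was set against each array's 75th percentile, and a probe was kept where some group had it well above background on each of its arrays (23298 of 39429). The probe with the highest mean level stood for a gene (18556 genes, 3907 with several probes). A single limma 3.58.1 model (lmFit, eBayes, R 4.3.3) held all 6 groups, with 6 residual and 2.14 prior degrees of freedom; p-values are two-sided and adjusted by Benjamini-Hochberg over all genes, and a gene rose or fell where the adjusted p was under 0.05. A gene below background on both arrays of a group has only a bound there, the brighter group's mean against the higher of the dim signal and the lowest signal well above background. The number of arrays limits the precision. data.table (version 1.17.8), jsonlite 2.0.0, Python 3.11.15 and matplotlib 3.10.9 were also used. The model was tested on simulated data.

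Members and gene lists were chosen with earlier results of these data known. From each list at most 4 genes per comparison were named, from those with the largest change past the threshold, and like genes by the highest Pearson correlation (8 and 4). Cebpa is always given. Replicate numbers were not used to pair samples in the main model. Over 15 pairs of groups, same-numbered deviations correlated at -0.01 to 0.26 (median 0.15), over 0.1 in 10 pairs. Same-numbered arrays may thus share some variation, and its source was not tested.

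Alternatives were array-median, quantile and normexp with quantile normalization, the authors' deposited table, no filter on dim probes, the mean of kept probes, fitting only the arrays compared, a replicate block and leaving out each array.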

Additional observations from a re-analysis of the deposited data

Results flagged for a closer look

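For 7 members the hCD4+ minus hCD4- difference itself differed between pro-B and pre-pro-B cells (limma, Benjamini-Hochberg adjusted over all genes). On the log2 scale, the pro-B difference minus the pre-pro-B difference was 2.05 for H2-Aa (adjusted p = 0.017), 0.92 for H2-Ab1 (0.00837), 2.20 for H2-Eb1 (0.0332), 2.75 for Cd74 (0.0342), 1.85 for H2-DMb1 (0.00309), 2.07 for H2-DMb2 (0.0145) and 1.06 for Ciita (0.0279). H2-DMb2 was below background on both arrays of each pro-B group, so its value is not a fold. The Ciita value is that of a single probe of low complexity. Under array-median scaling 3 of the 7 still passed, and H2-DMb1 alone passed under all 20 alternatives. Slide cannot be told apart from group here.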

How the results depend on the processing

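For the 10 members and 9 comparisons, 20 alternatives gave 1800 values: 1666 stayed on their side of the threshold, 88 no longer passed and 46 newly passed. A value had the other sign in 15 cases, in 10 pairs of gene and comparison, and in these it passed neither at first (at most 0.71 in size) nor under the alternative. In hCD4+ against hCD4- pre-pro-B cells, 2 members passed, but 1 with array-median scaling, 4 with normexp and quantile normalization, 4 in the authors' table and 0 when only those 4 arrays were fitted; leaving out 1 array gave 2 to 3. In the pro-B contrast 5 passed, but 2 with no filter on dim probes and 8 with the replicate block; leaving out 1 array gave 2 to 7. For the difference between these contrasts 7 passed, but 4 with array-median scaling and 4 with no filter; leaving out 1 array gave 2 to 7. In pre-B against hCD4- pro-B cells 8 passed, and 5 to 8 with 1 array left out. In the other comparisons every count stayed within 1.5 times. Where leaving out an array leaves a group with 1, that array is assumed to vary like the other groups.

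With the replicate block, 8 members passed in the pro-B contrast, H2-Eb1, Cd74 and H2-DMa among them (adjusted p = 0.0479, 0.0233 and 0.0286). No other count of members moved by over 1.5 times with it. The main model did not pair samples by replicate number. Over all genes, 3144 passed in the pre-pro-B contrast, against 484 when only those 4 arrays were fitted. In the pro-B contrast 3813 passed over all genes, and 1474 without hCD4- pro-B replicate 2. Slide as a random block could not be fitted, since each group lies on 1 slide. Ciita and H2-DMb2 were dim, and with normexp and quantile normalization their pro-B changes were 0.30 and 0.23, against 0.79 and 1.92. The cause of these shifts was not tested.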
